A study of Mus musculus with 50 samples.

Results

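The genes described here build the elastic fibres and microfibrils of the extracellular matrix. They are 10 of the 35717 genes in the deposited table: Fbn1, Mfap4, Mfap5, Emilin1, Eln, Fbln5, Efemp2, Efemp1, Fbln1 and Fbln2. They were chosen by name as a family, because earlier values of the same libraries had put some of them higher with angiotensin II (Ang II; Mfap4, Mfap5) and others lower (Efemp1, and Fbln1 in transgenic hearts). Their Ang II differences are therefore given as a description, with no test, and the tests concern genotype, sex and the variation of the members within groups.

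RNA was sequenced from the left ventricle of 50 mice aged 40 weeks on the C57BL/6J background. The transgenic mice (Tg) overexpress LARP6, an RNA-binding protein, in cardiomyocytes, and the wild-type mice (WT) are their littermates. Ang II, which constricts vessels and drives scarring, was given at 1000 ng/kg/min, and the other mice received sterile saline. Hearts were taken on day 21. The groups were 13 Tg Ang II hearts (7 female, 6 male), 12 Tg saline hearts (6 and 6), 14 WT Ang II hearts (7 and 7) and 11 WT saline hearts (5 and 6). The promoter of the transgene and the number of transgenic lines are not given in the labels, and libraries were treated as separate animals.

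An elastic fibre has a core of elastin inside a sheath of microfibrils. Fibrillin polymers are the backbone of the microfibril, small glycoproteins such as the MFAPs attach to them, and fibulins bring elastin, its cross-linking enzymes and the microfibril together. Such fibres give arteries and heart valves their recoil, and microfibrils also hold growth factors of the TGF-beta family in the matrix. In the heart these genes are known mainly from fibroblasts, vascular smooth muscle and valve cells.

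Total counts ranged from 53877400 to 91579300 per library. All 10 members were tested among the 11628 genes with an FPKM (fragments per length of transcript and per size of library) of at least 1 in at least 5 libraries, and 9 of them had that level in all 50 libraries, with Efemp1 at that level in 49. Efemp1, the member with the fewest counts, had a median of 322.5 counts, where counting error is 5.57%, and Fbln2 had a median of 6712.5 counts, where it is 1.22%. Gene positions below are those of the deposited table, which match the GRCm38 annotation exactly for 9 of the 10 members, and each gives the span of the whole gene. Levels below are the authors' FPKM divided by a scaling factor per library (scaled FPKM). Larp6 stood at 444 or more in every Tg heart and at 63.7 or less in every WT heart except library 329, a WT Ang II male by its label, which stood at 1000 and so goes against that label. The column name of library 329 carries Tg letters too. That of library 847, a Tg Ang II male by its label, carries WT letters, though its Larp6 stood at the Tg level. Leaving out both moved no member's log2 fold change by more than 0.052 in any comparison, the single call on a member that it ended is named below, and "the WT Ang II hearts" are the libraries so labelled. The sex labels were matched by Ddx3y, a Y-linked gene, at 7.06 or more in every male and 0.597 or less in every female.

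The markers of cardiomyocytes were high in every library, as the label of the tissue asks. Of the other cell types, fibroblast markers (10 genes) summed to 324 to 644 scaled FPKM in Tg Ang II, 495 to 742 in Tg saline, 306 to 474 in WT Ang II and 394 to 514 in WT saline hearts. Smooth muscle markers (6 genes) summed to between 57.2 and 228, and 6 markers of mesothelium, the cell layer on the heart's surface, to no more than 4.50. The 3 atrial markers summed to at most 1.17 and the 4 fat cell markers to at most 1.09. In such bulk tissue, fewer cells of a type and less RNA per cell cannot be told apart.

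Promoters were in the RefSeq table for 7 of the 10 members, some with several starts (build GRCm38.p6, 250 bases before to 50 after the start of the transcript); Mfap4, Mfap5 and Eln had no entry. Shown are those of Efemp1 and Fbln1, the members that stand apart from the others in the results below, and that of Fbn1, whose level followed most of the others. Capitals mark a match to 1 of 5 motifs searched on both strands: the TEAD site GGAATG, the AP-1 site TGANTCA, the GC box GGGCGG, the TATA box TATAAA and the nuclear receptor half-site AGGTCA.
Efemp1, chr11:28852955-28853254, plus strand: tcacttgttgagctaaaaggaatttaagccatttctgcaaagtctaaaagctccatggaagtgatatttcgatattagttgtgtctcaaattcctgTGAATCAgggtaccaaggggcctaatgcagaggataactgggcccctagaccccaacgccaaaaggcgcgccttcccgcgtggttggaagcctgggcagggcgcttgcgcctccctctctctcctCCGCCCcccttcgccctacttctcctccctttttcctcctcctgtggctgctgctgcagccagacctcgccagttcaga
Fbln1, chr15:85205699-85205998, plus strand: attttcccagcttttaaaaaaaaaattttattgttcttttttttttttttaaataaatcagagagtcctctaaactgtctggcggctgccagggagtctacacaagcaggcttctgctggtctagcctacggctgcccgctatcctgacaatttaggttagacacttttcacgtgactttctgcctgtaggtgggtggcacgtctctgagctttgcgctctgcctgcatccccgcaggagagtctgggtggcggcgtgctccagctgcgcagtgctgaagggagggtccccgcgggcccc
Fbn1, chr2:125506389-125506688, minus strand: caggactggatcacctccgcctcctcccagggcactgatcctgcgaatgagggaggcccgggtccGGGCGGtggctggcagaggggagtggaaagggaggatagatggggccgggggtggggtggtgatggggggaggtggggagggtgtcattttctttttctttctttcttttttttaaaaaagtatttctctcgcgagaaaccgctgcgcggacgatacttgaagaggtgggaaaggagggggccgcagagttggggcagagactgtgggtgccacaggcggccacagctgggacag
The Efemp1 window held 1 AP-1 site and 1 GC box, the Fbn1 window 1 GC box, and the Fbln1 window none of the 5 motifs. A second Fbln1 start in the table, at chr15:85205758-85206057, had 2 GC boxes in its window. Of 32851 mouse promoters of the same length, 7.81% held the AP-1 site, 35.7% the GC box, 14.7% the TEAD site, 13.6% the TATA box and 16.3% the half-site. No pair of matches overlapped in these windows, and a match of letters is not evidence of binding. The Fbn1 window lies inside the span of its gene, which begins at 125507993 on the minus strand. It is therefore not the window of the gene's outermost start.

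Per length of transcript, 4 members made up most of the family's RNA. Over all 50 hearts the mean levels were 16.5 scaled FPKM for Fbln1, 14.9 for Mfap4, 14.8 for Fbln2 and 9.90 for Mfap5. The other 6 averaged between 1.76 (Efemp2) and 4.24 (Fbn1). The first 3 of this order did not differ beyond their spread, at SDs of 4.25, 8.90 and 4.08 (n = 50), nor did the neighbours among the last 6. Summed over the 10 genes, the level was 96.2 ± 16 scaled FPKM in Tg Ang II (SD, n = 13), 83.2 ± 13.1 in Tg saline (n = 12), 68.0 ± 18.6 in WT Ang II (n = 14) and 48.5 ± 2.87 in WT saline hearts (n = 11).

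The order of the members, with the sexes pooled, differed between groups. Mfap4 came first in Tg Ang II hearts, with 24.1% ± 2.01 of the summed level, and stood well down the order in WT saline hearts, with 7.88% ± 1.20. Fbln1 came first in the other groups, and took 17.2% ± 4.11 in Tg Ang II, 26.0% ± 2.61 in Tg saline, 22.8% ± 5.09 in WT Ang II and 27.7% ± 3.57 in WT saline hearts. Efemp1 came after Fbln1 and Fbln2 in WT saline hearts, with 9.21% ± 3.53, and last in Tg Ang II hearts, with 1.62% ± 0.501. Its place in WT saline hearts rests on the males, with means of 5.85 scaled FPKM in males and 2.86 in females. In those females the means of Mfap4 (3.74), Mfap5 (3.63) and Emilin1 (3.05) were higher. Fbln2 kept a share near 20% in every group, from 18.6% in WT Ang II to 22.2% in WT saline hearts. These shares include the Ang II differences by which the family was chosen.

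**Figure D1:**
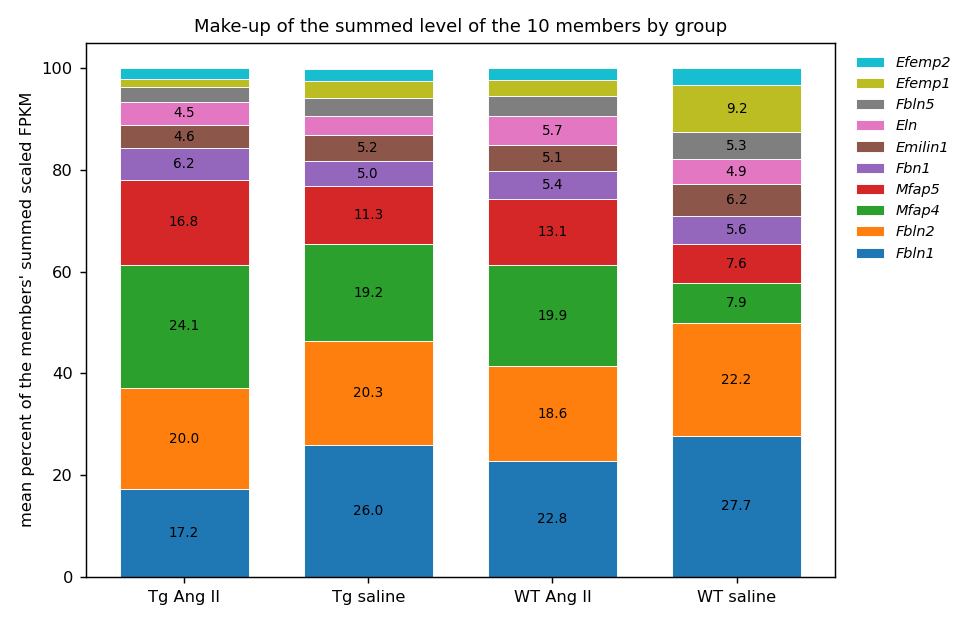
Mean share of each member in the summed scaled FPKM of the 10 genes, in percent, for the 13 Tg Ang II, 12 Tg saline, 14 WT Ang II and 11 WT saline hearts. Mfap4 held 24.1% in Tg Ang II and 7.88% in WT saline hearts, and Efemp1 held 1.62% in Tg Ang II and 9.21% in WT saline hearts.

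The first question was how the transgene bears on the family. Over both treatments 8 of the 10 members were higher and 1, Efemp1, was lower in Tg than in WT hearts by edgeR's quasi-likelihood test (adjusted p under 0.05 over all 11628 genes). The background was high, since 50.4% of all genes were called in this comparison, 24.9% higher and 25.5% lower. By size, 4 members were more than 1.5-fold higher, against 3.32% of all genes. The median log2 fold change was 0.41 over the 10 members and 0 over all genes tested. This comparison averages the treatments, though over the same libraries. Those under saline or Ang II alone share group values with the contrasts by which the family was chosen. Their p-values in the paragraphs below are therefore not independent of that choice. This holds most for Mfap4, Mfap5, Efemp1 and Fbln1, which the choice named.

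**Figure D2:**
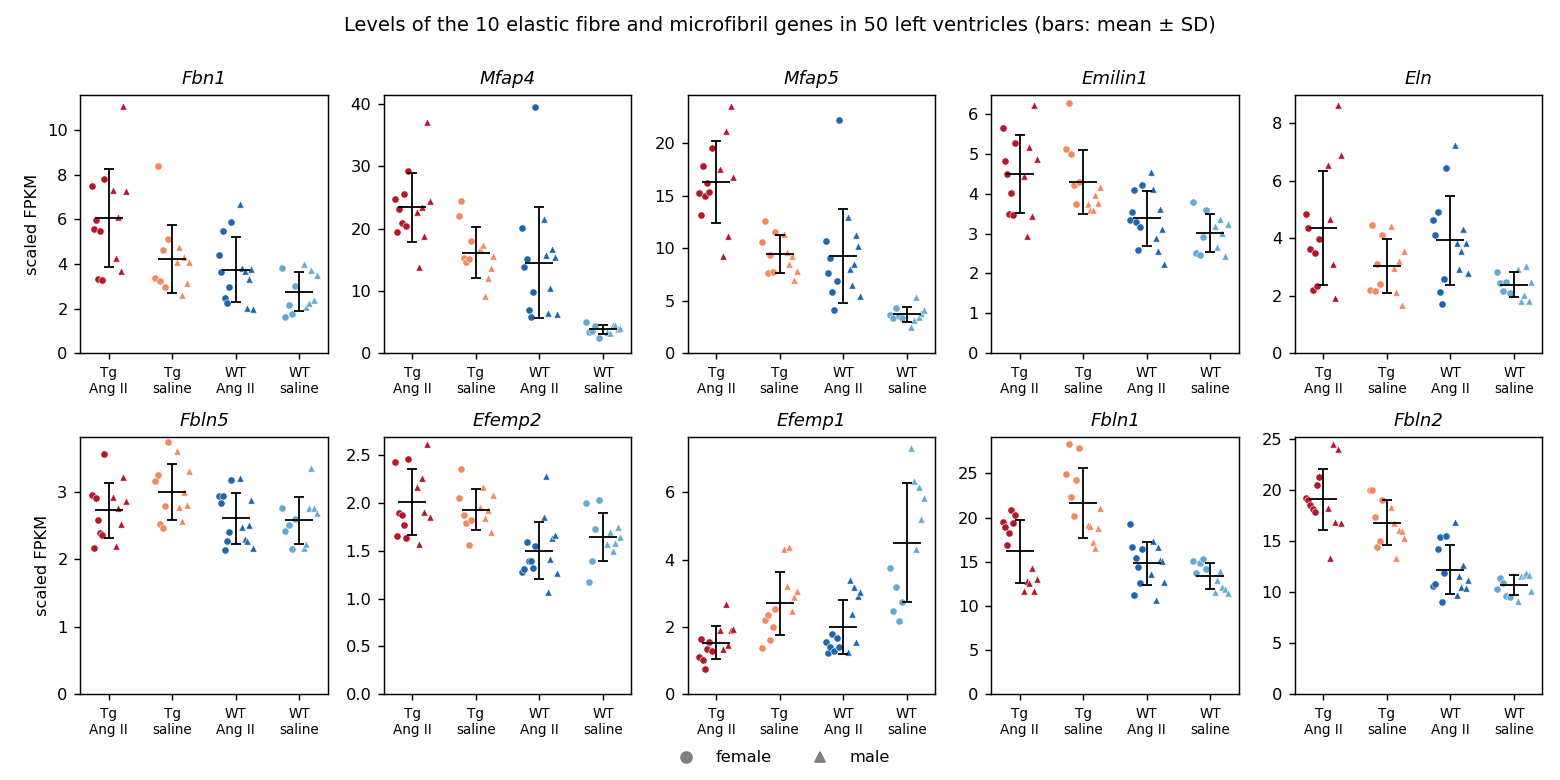
Level of each member in every heart, in scaled FPKM, by group, with females as circles and males as triangles; black bars give the mean and SD. Mfap4 in all 12 Tg saline hearts lay above all 11 WT saline hearts, and Efemp1 was lowest in Tg Ang II and highest in WT saline hearts.

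Fbn1 (ENSMUSG00000027204, chromosome 2, 125300594 to 125507993, minus strand) encodes fibrillin-1, the backbone of the microfibril. Its lowest, median and highest levels were 3.30, 5.99 and 11.1 scaled FPKM in Tg Ang II, 2.61, 4.10 and 8.41 in Tg saline, 1.97, 3.67 and 6.71 in WT Ang II and 1.60, 2.39 and 4.02 in WT saline hearts. The groups overlapped, but every Tg saline heart lay above the WT saline median and 11 of 13 Tg Ang II hearts above the WT Ang II median. The log2 fold change of Tg over WT was 0.66 ± 0.14 (SE, adjusted p = 0.00011), and it was 0.63 ± 0.21 under saline (adjusted p = 0.014) and 0.70 ± 0.19 under Ang II (adjusted p = 0.0038).

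Mfap4 (ENSMUSG00000042436, chromosome 11, 61485431 to 61488900, plus strand), a microfibril-associated protein that binds elastin and fibrillin, had the largest genotype difference of the family. Under saline its levels were 9.14 to 24.4 scaled FPKM with a median of 15.4 in Tg hearts, and 2.47 to 5.04 with a median of 3.92 in WT hearts. All 12 Tg saline hearts lay above all 11 WT saline hearts (log2 fold change 2.06 ± 0.22, adjusted p = 6.2e-10). Under Ang II the ranges overlapped, with 13.9 to 37.2 and a median of 23.2 in Tg and 5.84 to 39.5 and a median of 14.5 in WT hearts (0.69 ± 0.19, adjusted p = 0.0045). Over both treatments the log2 fold change was 1.38 ± 0.15 (adjusted p = 9.7e-11).

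Mfap5 (ENSMUSG00000030116, chromosome 6, 122505845 to 122528766, plus strand), a smaller microfibril glycoprotein, had the same order of groups as Mfap4. Tg saline hearts had 6.93 to 12.6 scaled FPKM (median 9.34), against 2.51 to 5.38 (median 3.51) in WT saline hearts, with no overlap. Tg Ang II hearts had 9.26 to 23.5 (median 16.2), against 4.09 to 22.2 (median 8.25) in WT Ang II hearts, and all 13 lay above the WT median. The log2 fold change was 1.35 ± 0.18 under saline (adjusted p = 7.9e-08), 0.82 ± 0.16 under Ang II (adjusted p = 9.7e-05) and 1.09 ± 0.12 over both (adjusted p = 3.5e-10). The highest value of Mfap4 and of Mfap5 in WT Ang II hearts came from the same female, replicate 14.

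Emilin1 (ENSMUSG00000029163, chromosome 5, 30913402 to 30921277, plus strand), a glycoprotein found where elastin meets the microfibril, was at 2.94 to 6.24 scaled FPKM (median 4.49) in Tg Ang II, 3.60 to 6.27 (4.07) in Tg saline, 2.23 to 4.54 (3.31) in WT Ang II and 2.44 to 3.79 (3.01) in WT saline hearts. It was higher in Tg by a log2 fold change of 0.45 ± 0.08 (adjusted p = 2.8e-06), with 0.50 ± 0.11 under saline (adjusted p = 0.00043) and 0.41 ± 0.10 under Ang II (adjusted p = 0.0018).

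Eln (ENSMUSG00000029675, chromosome 5, 134702593 to 134747323, minus strand), which encodes elastin itself, was the member whose genotype difference was not called. Its levels were 1.92 to 8.63 scaled FPKM (median 3.98) in Tg Ang II, 1.67 to 4.45 (3.04) in Tg saline, 1.72 to 7.24 (3.83) in WT Ang II and 1.81 to 3.04 (2.46) in WT saline hearts. The groups overlapped widely. The log2 fold change was 0.25, with a 95% interval of -0.03 to 0.52 (adjusted p = 0.14), and it was 0.35 with scaling by library size alone (adjusted p = 0.039) and 0.33 with a block for runs of library numbers (adjusted p = 0.041).

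Fbln5 (ENSMUSG00000021186, chromosome 12, 101746565 to 101819055, minus strand) and Efemp2 (ENSMUSG00000024909, chromosome 19, 5473954 to 5482517, plus strand) encode the fibulins that help elastin to assemble, fibulin-5 by binding elastin to the microfibril and fibulin-4 by bringing lysyl oxidase to elastin. Fbln5 differed least. It was at 2.17 to 3.55 scaled FPKM (median 2.76) in Tg Ang II, 2.46 to 3.73 (2.90) in Tg saline, 2.14 to 3.20 (2.49) in WT Ang II and 2.14 to 3.34 (2.60) in WT saline hearts, a log2 fold change of 0.14 ± 0.06 over both treatments (adjusted p = 0.038). Efemp2 was at 1.57 to 2.61 (1.89) in Tg Ang II, 1.56 to 2.35 (1.9) in Tg saline, 1.07 to 2.28 (1.41) in WT Ang II and 1.17 to 2.03 (1.64) in WT saline hearts, with 0.32 ± 0.07 over both treatments (adjusted p = 5.3e-05).

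The calls of Fbln5 were the least settled among those that were higher, and Efemp2 lay near the threshold under saline. That of Fbln5 over both treatments ended without libraries 329 and 847 (adjusted p = 0.052) and without any 1 of 15 single libraries (adjusted p = 0.050 to 0.068). The single libraries are replicates 6, 7, 10, 11, 12 and 13 of WT Ang II, 9 and 13 of Tg Ang II, 2, 4, 11 and 12 of Tg saline and 1, 2 and 7 of WT saline hearts. It also ended with the block for runs of library numbers (adjusted p = 0.061) and with no filter on low values (adjusted p = 0.079). Under saline Fbln5 was at 0.22 ± 0.09 (adjusted p = 0.035), a call that ended without any 1 of 9 libraries (adjusted p = 0.052 to 0.081), namely replicates 1, 2, 4, 11 and 12 of Tg saline and 1, 2, 4 and 7 of WT saline hearts, with the block (adjusted p = 0.088) and with no filter (adjusted p = 0.069). Efemp2 under saline was at 0.23 ± 0.10 (adjusted p = 0.057) and was called without any 1 of 6 libraries (adjusted p = 0.029 to 0.045), namely replicates 9 and 10 of Tg saline, 5 and 6 of WT Ang II and 3 and 11 of WT saline hearts. It was also called with scaling by library size alone (adjusted p = 0.0066) and by limma (adjusted p = 0.048 and 0.049 with pseudocounts of 0.1 and 1). Under Ang II, Efemp2 was at 0.42 ± 0.09 (adjusted p = 0.00021) and Fbln5 at 0.06 ± 0.08 (adjusted p = 0.58).

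Fbln2 (ENSMUSG00000064080, chromosome 6, 91212455 to 91272540, plus strand), a fibulin of basement membranes, valves and vessels, was higher in Tg by nearly the same amount under both treatments. Its levels were 13.4 to 24.5 scaled FPKM (median 18.6) in Tg Ang II, 13.4 to 20.0 (16.5) in Tg saline, 9.08 to 16.9 (11.4) in WT Ang II and 9.18 to 11.9 (10.9) in WT saline hearts. All Tg saline hearts lay above all WT saline hearts, and 10 of 13 Tg Ang II hearts above all WT Ang II hearts. The log2 fold change was 0.65 ± 0.09 under saline (adjusted p = 1.6e-07) and 0.65 ± 0.08 under Ang II (adjusted p = 5.2e-08).

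Fbln1 (ENSMUSG00000006369, chromosome 15, 85205949 to 85286535, plus strand), a fibulin that binds fibronectin and basement membrane proteins, was higher in Tg hearts under saline and, averaged over the sexes, not distinguishable under Ang II. Tg saline hearts had 16.6 to 28.3 scaled FPKM (median 20.6), against 11.4 to 15.3 (13.7) in WT saline hearts, with no overlap (log2 fold change 0.68 ± 0.07, adjusted p = 1.7e-10). Tg Ang II hearts had 11.6 to 20.9 (16.9), against 10.7 to 19.3 (15.1) in WT Ang II hearts. That difference was 0.08, with a 95% interval of -0.05 to 0.20 (adjusted p = 0.39). It averages females, whose Tg mean was above the WT mean, and males, whose Tg mean was below it, as given below. Over both treatments Fbln1 was higher by 0.38 ± 0.05 (adjusted p = 5.0e-09).

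Efemp1 (ENSMUSG00000020467, chromosome 11, 28853204 to 28926743, plus strand), which encodes fibulin-3, was the member that was lower in Tg hearts. Tg saline hearts had 1.38 to 4.37 scaled FPKM (median 2.51), against 2.16 to 7.32 (4.31) in WT saline hearts, and 11 of the 12 Tg hearts lay at or below the WT median. The log2 fold change was -0.65 ± 0.14 under saline (adjusted p = 0.00027) and -0.49 ± 0.10 over both treatments (adjusted p = 3.6e-05). Under Ang II the ranges were 0.758 to 2.69 (1.47) in Tg and 1.22 to 3.40 (1.62) in WT hearts, a difference of -0.34 ± 0.13 (adjusted p = 0.045). This last call ended without any 1 of 16 Ang II libraries (adjusted p = 0.051 to 0.085), namely replicates 1, 3, 4, 5, 7, 8, 9, 12 and 13 of Tg and 2, 5, 7, 9, 10, 12 and 13 of WT, and in 6 of 9 other alternatives (adjusted p = 0.057 to 0.17). Without libraries 329 and 847 it was at -0.39 ± 0.14 (adjusted p = 0.023).

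In counts, 7 members were called higher and 1 lower in Tg under saline, where 40.6% of all genes were called (20.4% higher, 20.2% lower), and 6 higher and 1 lower under Ang II, where 32.8% were (16.4% in each direction). These counts within a treatment rest on values that the choice of the family used. A call in one treatment and not in the other does not show that the genotype effect differs between them. Overlap of ranges was looked at for the members only. The share of all genes whose groups or sexes do not overlap is not known here. The separations given above for genotype and below for sex are therefore descriptions.

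**Figure D3:**
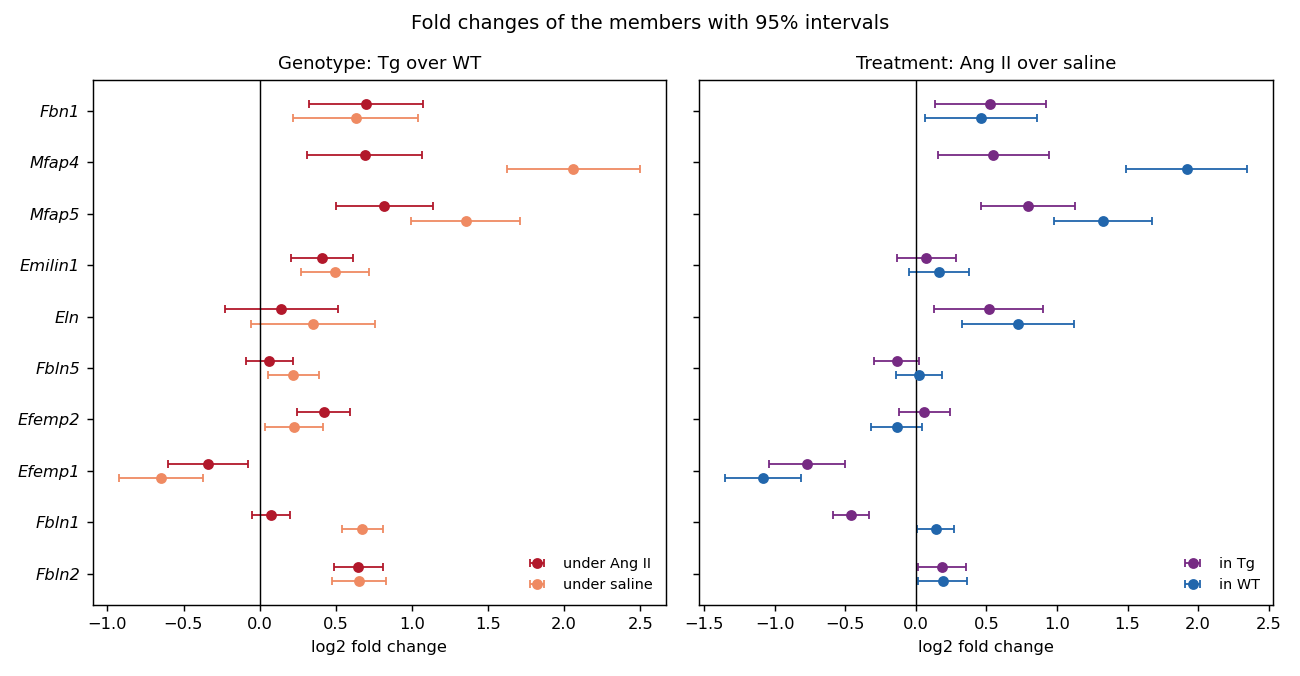
Log2 fold changes of the 10 members with 95% intervals, Tg over WT under Ang II and under saline (left) and Ang II over saline in Tg and in WT hearts (right, a description because the family was chosen on it). Efemp1 is left of zero in all 4 comparisons, while Mfap4 and Mfap5 are right of zero in all 4.

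The second question was the Ang II response in each genotype, given here without tests. In WT hearts 3 members stood more than 1.5-fold above saline, Mfap4 (log2 fold change 1.92 ± 0.22), Mfap5 (1.33 ± 0.18) and Eln (0.72 ± 0.20), and 1 below it, Efemp1 (-1.08 ± 0.14). Of all genes, 1.93% were above and 0.869% below by that size. In Tg hearts, Mfap5 stood above by that size (0.79 ± 0.17) and Efemp1 below (-0.77 ± 0.14), against 0.525% and 0.688% of all genes. Since the family was chosen on these contrasts, nothing is read from these counts.

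The difference between the responses, Tg minus WT, was -1.37 ± 0.29 for Mfap4, whose WT saline hearts formed a tight low group (2.47 to 5.04 scaled FPKM) while its Tg saline hearts lay at 9.14 or more. For Fbln1 the difference was -0.60 ± 0.09, with -0.46 ± 0.07 for Ang II in Tg hearts and 0.14 ± 0.07 in WT hearts. For Mfap5 it was -0.53 ± 0.24. For Fbn1, Emilin1, Eln, Fbln5, Efemp2, Efemp1 and Fbln2 it lay between -0.21 and 0.31, with SEs from 0.12 (Fbln5) to 0.28 (Fbn1). For Mfap4 and Fbln1 it was past 1.5-fold on the lower side, as for 1.57% of all genes. Across all genes this difference was called for 5 of 11628, or 0.0430%.

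Fbn1 and Fbln2 had like values in both genotypes. Fbn1 was at 0.53 ± 0.20 for Ang II over saline in Tg hearts and 0.46 ± 0.20 in WT hearts, and Fbln2 at 0.19 ± 0.09 in both. Emilin1 (0.07 in Tg and 0.16 in WT), Fbln5 (-0.14 and 0.02) and Efemp2 (0.06 and -0.14) were within 0.17 of 0. Eln was at 0.52 ± 0.20 in Tg and 0.72 ± 0.20 in WT hearts. The spread between animals was widest in WT Ang II hearts for Mfap4, with an SD of 8.85 scaled FPKM there, against 0.729 in WT saline hearts. Without the highest WT Ang II heart or any other single library, the Ang II log2 fold change of Mfap4 in WT stayed between 1.71 and 1.99.

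The sexes gave a result that the choice of the family did not use. Of the 10 members, 2 differed between females and males over the 4 groups, in opposite directions, where 4.42% of all genes were called (1.86% higher and 2.56% lower in females). Efemp1 was lower in females, by a log2 fold change of -0.78 ± 0.10 (adjusted p = 2.5e-07), and only 0.206% of all genes were lower in females by more than 1.5-fold. Fbln1 was higher in females, by 0.33 ± 0.05 (adjusted p = 5.1e-06). The other 8 members were not called (adjusted p = 0.48 to 0.92), with log2 fold changes from -0.15 (Eln, 95% interval -0.43 to 0.12) to 0.14 (Mfap4, -0.14 to 0.42).

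Efemp1 had a lower median in females of every group. It was at 0.758 to 1.65 scaled FPKM in Tg Ang II females and 1.34 to 2.69 in Tg Ang II males, and at 1.38 to 2.54 in Tg saline females and 2.48 to 4.37 in Tg saline males. In WT Ang II hearts females had 1.22 to 1.80 and males 1.25 to 3.40, and the 2 lowest males there were replicate 1 (1.25) and library 329 (1.54). Without libraries 329 and 847 the log2 fold change of females over males was -0.80 ± 0.10 (adjusted p = 1.4e-07). In WT saline hearts the sexes did not overlap, with 2.16 to 3.74 in 5 females and 4.31 to 7.32 in 6 males. No female in any group lay above the median male of her group.

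Fbln1 ran the other way. Tg Ang II females had 16.9 to 20.9 scaled FPKM and Tg Ang II males 11.6 to 14.3, with no overlap. Tg saline females had 20.1 to 28.3 and males 16.6 to 21.1, WT Ang II females 11.2 to 19.3 and males 10.7 to 17.3, and WT saline females 13.7 to 15.3 and males 11.4 to 13.9. The sexes were closest in WT Ang II hearts, with means of 15.2 ± 2.68 and 14.5 ± 2.31 (SD, n = 7 each). Under Ang II the Tg mean was above the WT mean in females (19.2 and 15.2) and below it in males (12.7 and 14.5), and that contrast on its own was not tested.

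**Figure D4:**
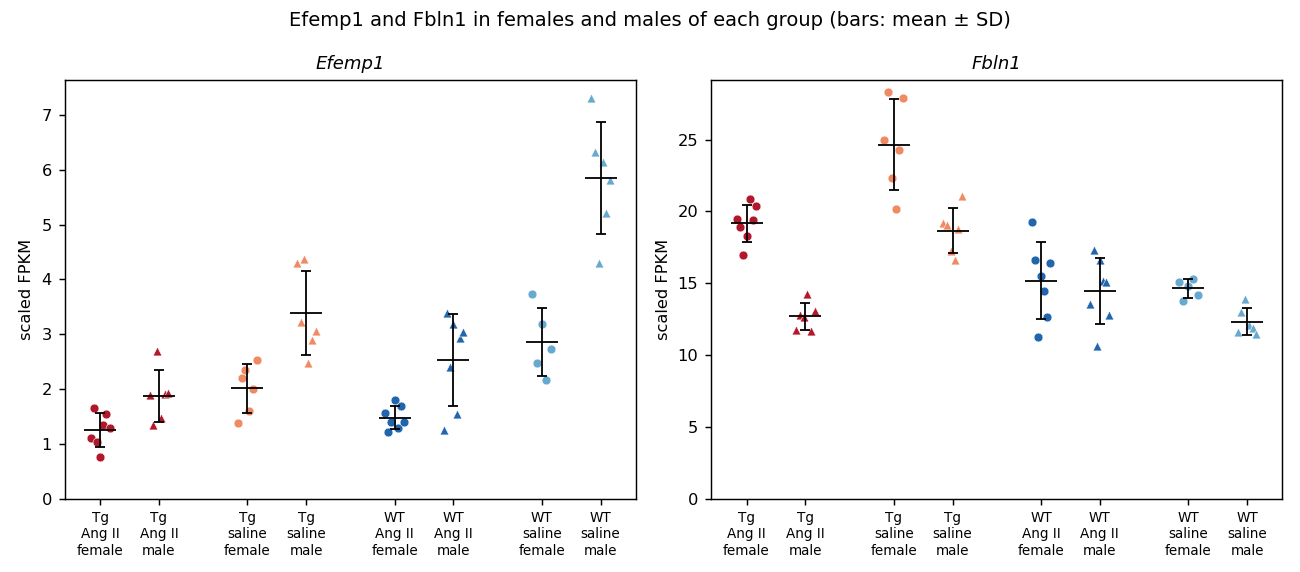
Efemp1 (left) and Fbln1 (right) in scaled FPKM in the females and males of each group, 1 point per heart, with mean and SD. Efemp1 is lower and Fbln1 higher in females of each group, and the sexes do not overlap for Efemp1 in WT saline and for Fbln1 in Tg Ang II hearts.

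Whether the effects of genotype or Ang II differ between the sexes was tested directly. No member and no gene was called by edgeR in either interaction, with 414 genes (genotype) and 491 genes (Ang II) of 11628 at an unadjusted p under 0.05, and 2 genes called in each by DESeq2, none of them a member. The genotype effect on Fbln1 was 0.55 ± 0.07 in females and 0.20 ± 0.07 in males, and their difference of 0.34 ± 0.09 did not pass (unadjusted p = 0.00068, adjusted p = 1). For Efemp1 the genotype effect was -0.38 ± 0.14 in females and -0.61 ± 0.14 in males, a difference of 0.24 with a 95% interval of -0.14 to 0.62 (adjusted p = 1).

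Few markers of other cell types were called by sex. Of 10 fibroblast markers, 1 (Gsn) was called higher in females and 0 lower (0 in either direction without libraries 329 and 847), with 2 more at an unadjusted p under 0.05. Their sum was 306 to 742 scaled FPKM (mean 501) in females and 324 to 670 (mean 448) in males. The summed mesothelial markers were 0.460 to 4.28 in females and 0.540 to 4.50 in males, and the fat cell markers 0.00853 to 1.09 (mean 0.404) in females and 0 to 0.369 (mean 0.0919) in males, too low to be tested. The 4 erythroid markers, which report blood in the tissue, had a median sum of 242 in females and 499 in males, with a median log2 fold change of -0.51 and 0 of 4 called by edgeR (2 at an unadjusted p under 0.05). Acta2, the actin of smooth muscle and myofibroblasts, was higher in females by 0.44 ± 0.11 (adjusted p = 0.013). The part of these markers in the sex differences of Efemp1 and Fbln1 was not tested.

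The members were then compared heart by heart within the groups, which asks what they share beyond genotype, treatment and sex. Deviations of log2(scaled FPKM + 1) from the mean of each genotype, treatment and sex were correlated over the 50 hearts, and each pair was tested by a two-sided permutation test within groups (100000 resamples, Benjamini-Hochberg adjusted over the 45 pairs). Of the 45 pairs, 26 were called by Pearson's r, all positive, and 27 by Spearman's rho. The share of pairs of other genes that would be called in this way is not known here. The counts therefore do not show that the family is tied more closely than other genes. The strongest was Mfap4 with Mfap5 (r = 0.87, rho = 0.76, adjusted p = 5.0e-05), followed by Fbn1 with Eln (r = 0.82, rho = 0.81), Fbn1 with Emilin1 (r = 0.81, rho = 0.76) and Emilin1 with Efemp2 (r = 0.74, rho = 0.69). The unadjusted p of each of these pairs but the last by rho was 1e-05, the smallest these permutations can give.

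Fbn1, Mfap4, Mfap5, Emilin1, Eln, Fbln5 and Efemp2 were called in all 21 of their pairs, a grouping made after the values were seen, with r from 0.36 (Eln with Efemp2) to 0.87. Without the 2 hearts farthest from the median of the first gene of a pair, r was 0.38 to 0.80. With the block for runs of library numbers r was 0.20 to 0.90, and Eln with Efemp2 was no longer called (r = 0.20, adjusted p = 0.30). Within single groups r ran from 0.38 to 0.92 in Tg Ang II, 0.27 to 0.81 in Tg saline and 0.37 to 0.96 in WT Ang II hearts. In the 11 WT saline hearts, where the levels varied least, r ran from -0.38 to 0.70 with a median of 0.24. Fbln2 was called with 5 of the 7, most strongly with Mfap5 (r = 0.62, rho = 0.52, adjusted p = 0.00057).

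Pooled over the groups, Efemp1 and Fbln1 stood outside this pattern. No pair with Efemp1 was called, and its r with the 7 lay between -0.15 (Mfap4) and 0.05 (Efemp2). Within groups its median r with the 7 was 0.32 in Tg Ang II, 0.03 in Tg saline, -0.47 in WT Ang II and 0.19 in WT saline hearts, and differences between groups were not tested. Fbln1 was called in no pair by Pearson's r and with Mfap4 by Spearman's rho (r = 0.40, adjusted p = 0.079; rho = 0.46, adjusted p = 0.0083). Within groups, r of Fbln1 with the 7 was -0.42 to -0.18 in Tg Ang II, 0.39 to 0.77 in Tg saline, -0.05 to 0.43 in WT Ang II and -0.34 to 0.53 in WT saline hearts. The pair of Efemp1 and Fbln1 was not called either (r = 0.12, rho = 0.11, adjusted p = 0.63).

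**Figure D5:**
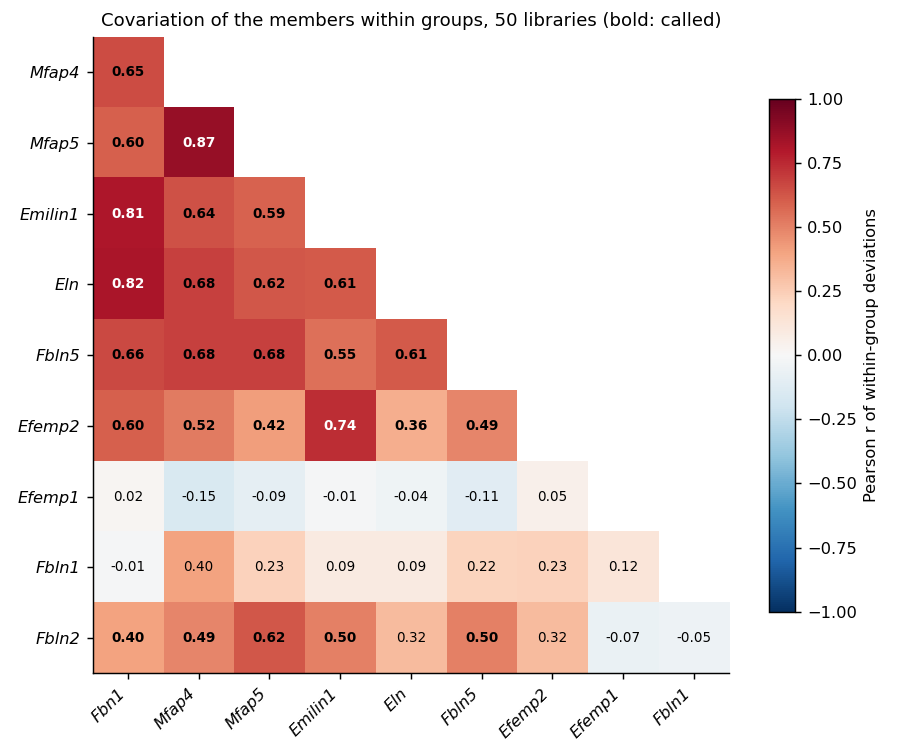
Pearson correlation between members of their deviations from the mean of each genotype, treatment and sex, over 50 hearts; bold values were called. The 7 genes from Fbn1 to Efemp2 form a block of 0.36 to 0.87, while the rows of Efemp1 and Fbln1 hold no called value.

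The same deviations were compared with the summed markers of 4 cell types and with Nppa, a natriuretic peptide that ventricular muscle makes under load. Of 50 pairs, 15 were called, 10 positive and 5 negative. How often genes outside the family would be called with these markers is not known here. Fbln1 followed the fibroblast markers most closely (r = 0.64, rho = 0.65, adjusted p = 0.0010, and r = 0.69 without the 2 farthest hearts), and Fbln5 came next (r = 0.51, rho = 0.52, adjusted p = 0.0067). Mfap4 and Mfap5 followed Nppa (r = 0.63 and 0.55, rho = 0.55 and 0.45, adjusted p = 0.0017 and 0.0062). Nppa was also called with Emilin1 (r = 0.46, rho = 0.49), Fbln5 (r = 0.45, rho = 0.49) and Eln (r = 0.43, rho = 0.47).

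Cardiomyocyte markers ran against Fbln2 (r = -0.49, rho = -0.50), Mfap4 (r = -0.47, rho = -0.56), Mfap5 (r = -0.47, rho = -0.54), Fbln5 (r = -0.43, rho = -0.42) and Emilin1 (r = -0.41, rho = -0.44), with adjusted p of 0.012 to 0.029. With the block for runs of library numbers, Mfap4 (r = -0.39, adjusted p = 0.054) and Fbln5 (r = -0.35, adjusted p = 0.084) were not called. Fibroblast markers were called with Efemp2 by Pearson's r (r = 0.40, adjusted p = 0.029), but not by Spearman's rho (0.31, adjusted p = 0.085) or with the block (r = 0.24, adjusted p = 0.20). Efemp1 was called with the mesothelial markers (r = 0.38, rho = 0.42, adjusted p = 0.025), which stand near the lower end of detection, and was at 0.13 (adjusted p = 0.46) with a block for runs of library numbers. Eln was called with them by Pearson's r (r = 0.43, adjusted p = 0.029) and not by Spearman's rho (0.36, adjusted p = 0.058). With the block it was called by Pearson's r (r = 0.55, adjusted p = 0.0046). No member was called with the smooth muscle markers by Pearson's r, with Efemp2 nearest (r = 0.35, rho = 0.36, adjusted p = 0.051), and Fbln1 was called by Spearman's rho (r = 0.34, rho = 0.38, adjusted p = 0.033). The block also added calls by Pearson's r. They were Efemp2 with smooth muscle (r = 0.44, adjusted p = 0.013) and cardiomyocyte markers (r = -0.42, adjusted p = 0.037), and Efemp1 with fibroblast markers (r = 0.38, adjusted p = 0.033).

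The genes most like each member were ranked over 11609 other genes by Spearman's rho of the same deviations over the 50 hearts, as a description. Fbn1 was most like Col3a1, Col15a1 (0.93 each) and Col6a1 (0.92), which encode collagen chains. Mfap4 and Mfap5 both had Postn, a matrix protein of activated fibroblasts, first (0.88 each). Emilin1 and Eln shared Loxl1, an elastin cross-linking enzyme, among their first 3 (0.82 and 0.78). Fbln1 was nearest to the complement protease gene C1ra (0.72) and to Dcn, the proteoglycan decorin (0.70). Efemp1 had no close neighbour, with Pik3c2a (0.63) first, and Fbln2 was nearest to Thbs3, a thrombospondin (0.71).

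Other genes of elastic fibre biology were taken from 5 lists, of which 46 genes were expressed highly enough to test. Their counts over both treatments are to be read against the 24.9% of all genes called higher and 25.5% called lower in Tg. Of 15 other microfibril and elastic fibre genes tested (20 listed), 8 were higher and 2 lower in Tg over both treatments, with a median log2 fold change of 0.25. Adamtsl5 (0.61 ± 0.04) and Adamtsl2 (1.29 ± 0.15) encode ADAMTS-like proteins that bind microfibrils, Bgn (0.93 ± 0.09) the proteoglycan biglycan, and Ltbp3 (0.43 ± 0.04) a latent TGF-beta binding protein. Of 5 elastin cross-linking and chaperone genes (7 listed), 4 were higher, such as Loxl1 (0.72 ± 0.10), and 1 was lower, Fkbp10, a chaperone of collagen and elastin (-0.35 ± 0.05). Each of these 6 genes passed with an adjusted p of 7.6e-07 or less.

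Of 10 elastin-degrading proteases and their inhibitors (12 listed), 7 were higher and 1 lower in Tg. Timp1, a metalloproteinase inhibitor, stood at 5.12 to 20.8 scaled FPKM in Tg Ang II, 2.71 to 12.8 in Tg saline, 1.44 to 9.19 in WT Ang II and 1.03 to 2.85 in WT saline hearts (log2 fold change 1.70 ± 0.17, adjusted p = 3.4e-11). The protease Mmp2 (0.53 ± 0.08) and the elastin-cutting cathepsin Ctss (0.75 ± 0.11) were higher too. Of 7 elastin receptor and microfibril-binding integrin genes (9 listed), 6 were higher and 0 lower, Itgb5 by 0.51 ± 0.04 and Itga5 by 0.50 ± 0.05. Of 9 TGF-beta genes, 5 were higher and 1 lower, and Tgfb2, a ligand, was higher by 1.46 ± 0.12 (adjusted p = 2.9e-14).

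For the Ang II contrasts of these genes p-values are given, though the lists were chosen with earlier results of these data known and are no independent support. In WT hearts 5 of 15 other microfibril and elastic fibre genes were higher with Ang II than under saline and 2 lower (4 and 2 without libraries 329 and 847, where Ltbp3 was at adjusted p = 0.055), where 9.71% and 8.87% of all genes were. Ltbp2, which binds fibrillin and fibulin-5, was at 0.368 to 5.82 scaled FPKM in WT Ang II and 0.114 to 0.391 in WT saline hearts (log2 fold change 2.38 ± 0.34, adjusted p = 2.2e-06). Adamtsl2 (1.39 ± 0.22), Bgn (0.70 ± 0.13) and Mfap2, the close relative of Mfap5 (0.71 ± 0.18, adjusted p = 0.0041), were higher as well. So were Lox, the founding elastin cross-linking enzyme (1.24 ± 0.27, adjusted p = 0.00085), Loxl1 (0.58 ± 0.15) and Loxl3 (0.52 ± 0.14).

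In Tg hearts 1 of those 15 genes, Ltbp2, was higher with Ang II (1.10 ± 0.30, adjusted p = 0.016) and 1, Tnxb, a tenascin that binds collagen and elastic fibres, was lower (-0.34 ± 0.08, adjusted p = 0.0035), where 4.88% and 4.04% of all genes were. Lox was at 1.10 to 5.07 scaled FPKM in Tg Ang II and 0.554 to 1.85 in Tg saline hearts (0.91 ± 0.26, adjusted p = 0.018), and Loxl2 was higher by 0.52 ± 0.17 (adjusted p = 0.045, and 0.063 without libraries 329 and 847). For the difference of the responses between the genotypes, edgeR called 0 of the 46 genes, with 16 at an unadjusted p under 0.05. Between the sexes, Emilin2, a relative of Emilin1 (0.30 ± 0.07, adjusted p = 0.010), Adamtsl2 (0.58 ± 0.15, adjusted p = 0.013) and Timp2, a metalloproteinase inhibitor (0.16 ± 0.05, adjusted p = 0.042, a call that ended at adjusted p = 0.053 without libraries 329 and 847), were higher in females.

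Markers of several cell types moved with genotype beside the members. In Tg over WT, 9 of 10 fibroblast markers were called higher (median log2 fold change 0.39), as were all 5 tested myofibroblast markers (1.15) and all 5 macrophage markers (0.60). All 6 endothelial markers (-0.43), 5 of 6 pericyte markers (-0.44, with 1 higher) and 4 of 6 cardiomyocyte markers (-0.23) were lower. So were 3 of 5 smooth muscle markers (-0.21), with 1 higher, Acta2, which is also in the myofibroblast list. Mean Acta2 was 72.5 and 87.9 scaled FPKM in Tg Ang II and Tg saline, and 34.2 and 36.8 in WT Ang II and WT saline hearts. The smooth muscle sum, which includes Acta2, had means of 105, 123, 73.5 and 82.1 in the same order. With Ang II, fibroblast markers were called 2 higher and 2 lower in WT hearts and 0 higher and 5 lower in Tg hearts, and myofibroblast markers 4 of 5 higher in WT and 3 of 5 in Tg hearts. Without libraries 329 and 847 these counts became 2 higher and 1 lower for fibroblast markers in WT, 2 of 5 for myofibroblast markers in Tg, and 5 lower and 1 higher of 6 for cardiomyocyte markers in Tg over WT. The part of these markers in the members' differences was not tested.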

How the data were processed

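Gene counts and FPKM for 50 left ventricle libraries were deposited by the authors in 1 table. The libraries were poly(A)-selected and stranded (dUTP), per the labels' protocols. Cutadapt 1.9, FastQC, HISAT2 2.0.4 and StringTie 1.3.4d are named in the submitters' processing notes; the build, counting tool and strand setting are not given in the sources used here. Of 35717 gene identifiers, 35599 were found in GENCODE M21 (GRCm38), 91.6% with identical start and end.

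From the counts, edgeR 4.0.16 (R 4.3.3) fitted quasi-likelihood models with 1 mean for each genotype, treatment and sex, the sexes weighted equally, median-of-ratios scaling and Benjamini-Hochberg adjustment over 11628 genes (FPKM at least 1 in at least 5 libraries), with a call at an adjusted p under 0.05. Errors of log2 fold changes are SE. Groups and sexes were taken from the labels, replicate numbers follow accession order and only name libraries, and p-values measure the spread between these libraries. Scaled FPKM is the deposited FPKM divided by a separate set of median-of-ratios factors, computed from the FPKM of the same genes (0.776 to 1.14). Correlations used Python 3.11.15 and scipy 1.17.1, and DESeq2 1.42.0 and limma 3.58.1 served as alternatives. In counts simulated for Tg against WT over both treatments with 200 of 11628 genes changed, 91% of changes of 0.5 and 99% of changes of 1 on the log2 scale were recovered, and 10.4% of the calls were false. That false share is above the 0.05 at which the threshold aims. In the data 50.4% of all genes were called in this comparison, far more than were changed in the simulation, so these rates may not carry over. The members, lists and named genes were chosen with earlier results of these data known. Named were all 10 members, in each other list and comparison some of up to 4 genes with the smallest p, the 3 genes most like each member, and Larp6; marker genes named by themselves were chosen after their values were seen.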

Additional observations from a re-analysis of the deposited data

How the results depend on the processing

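No called result reversed its direction under any alternative; members near 0 that were not called or not tested crossed 0 when single libraries were left out, such as Fbln2 in Tg minus WT (-0.05 to 0.05), Fbln5 for Ang II in WT (-0.01 to 0.06) and Mfap5 between the sexes (-0.06 to 0.07). Calls on members that changed stand beside their values in the report; the sex differences of Efemp1 and Fbln1 kept their calls wherever they were tested, with log2 fold changes of -0.81 to -0.75 and 0.31 to 0.34 when each library was left out. A stricter filter (FPKM 5 or more in 11 libraries or more) called 2856 genes and 5 members for Tg over WT over both treatments, 2453 and 5 under saline, 2096 and 4 under Ang II, 1242 genes for Ang II in WT, and 327 genes and 1 member between the sexes. Fewer genes and members are tested there, as Fbln5 and Efemp2 reached at most 3.73 and 2.61 scaled FPKM. The numbers tested with that filter are not given here. These counts are therefore not shares and cannot be read as calls lost. For Ang II in Tg, 1038 genes were called, 634 with no filter, 598 with a block for runs of library numbers, and 656 to 1128 without each library. For the difference of the Ang II response, Tg minus WT, 5 genes were called, 8 with library size only, 2 with no filter, 40 by DESeq2, 3 by limma with either pseudocount, 3 without libraries 329 and 847, 0 with no term for sex or with the block, and 2 to 21 without each library. Between the sexes 514 genes were called, 1223 with library size only, 321 with the block, and 382 to 635 without each library. DESeq2 called 2 genes in each sex interaction. The cause of these shifts was not tested. Library size only moved the median of all genes by 0.11 over both treatments and 0.14 under saline, and split the calls into 5552 higher and 1305 lower over both treatments (2895 and 2969 otherwise). Of the 45 pairs of members, 26 were called, with 33 when FPKM was not scaled further and 25 with the block, without Eln with Efemp2. No paired analysis was possible because each library number occurs once and the replicate numbers only name samples. Counts limit Efemp1 most.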
